A study of Mus musculus with 23 samples.

Results

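The 10 genes described here are regulators of muscle gene expression, chosen by their symbols from the 54446 genes of a count table and found again by Ensembl identifier among the 15624 genes of a second table. The choice was made with earlier results of these data known. The genes are the 4 myogenic regulatory factors Myod1, Myog, Myf5 and Myf6, the 3 Mef2 factors Mef2a, Mef2c and Mef2d, the class II histone deacetylases Hdac4 and Hdac5, and the runt factor Runx1. They were measured by RNA-seq in mouse skeletal muscle, most of it 10 d after denervation, an operation that cuts a muscle off from its nerve and leads to atrophy. The first set of libraries held denervated muscle of PAX4 KO mice (3 libraries), denervated muscle of WT mice (3) and innervated muscle of WT mice (3). The second set was all denervated for 10 d and held muscle labelled double KD, in which the labels name both NRF1PAL and PAX4 as targets (3), muscle labelled NRF1 KD, with NRF1PAL alone as target (3), and WT muscle labelled con (2 of 3 libraries, called 2 and 3). NRF1PAL is nuclear respiratory factor 1, also called alpha-PAL, encoded by Nrf1 and known for switching on nuclear genes that mitochondria need. PAX4 belongs to the paired box family of DNA-binding proteins. The labels give neither strain, age, sex nor the muscle taken, and they do not say how the knockout or the knockdowns were made, or whether separate libraries stand for separate animals. The p-values therefore reflect variation among the libraries alone, some of which may be technical.

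Myogenic regulatory factors are bHLH proteins that pair with E proteins, bind E-boxes in DNA and drive muscle-specific genes. Mef2 factors bind A/T-rich sites beside them, and class II histone deacetylases hold Mef2 in check until kinases that respond to calcium send the deacetylases out of the nucleus. In innervated muscle, electrical activity keeps Myog and the acetylcholine receptor genes low. In denervated mouse muscle Hdac4 is known to repress Dach2, itself a repressor of Myog, and Runx1 is known to rise and to limit wasting.

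The count table held 21716216 to 42821396 counts per library, and the second set 23740769 to 30165765 recovered reads. At the RNA level, Pax4 could not check the group names, since it was undetected in WT muscle too. Nrf1 did not bear the names out. Every library of the first set held 0 counts of Pax4, an upper limit of 0.0701 to 0.138 CPM (counts scaled to the normalised library size) by 3 counts per library, which covers counting error only, and it was not among the genes of the second table. Nrf1 mRNA did not pass as lower than WT con in muscle labelled NRF1 KD or double KD. Its log2 difference was 0.10 ± 0.12 for NRF1 KD and -0.07 ± 0.12 for double KD (SE, limma, adjusted p = 0.618 and 0.784). The groups are therefore called by their labels. Fibre markers were high throughout, and none of the 10 was at 0 in all libraries of a group. Innervated library 2 stood above the other innervated libraries in several genes described here. Denervated WT library 1 stood below the other denervated WT libraries in several genes too, though not in Mef2d. Some of the results are therefore also given without these libraries.

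In WT muscle 7 of the 10 genes rose with denervation, 2 fell and 1 did not pass the test. Myog, the factor that drives terminal differentiation, and Runx1 were 15.8-fold and 14.5-fold higher. Myf6, Myod1, Hdac4, Myf5 and Mef2a rose by smaller folds, between 1.51 and 4.22. Mef2d and Hdac5 fell and Mef2c did not pass. Over all 16146 genes tested, 16.5% were called higher and 15.8% lower (edgeR's quasi-likelihood test, adjusted p under 0.05). The median log2 fold change was 1.29 over the 10 genes and 0.02 over all genes. Every called gene also had non-overlapping libraries in the 2 WT groups, 7 with all denervated libraries above and 2 with all below, where 23.9% and 22.6% of all genes were so placed.

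**Figure D1:**
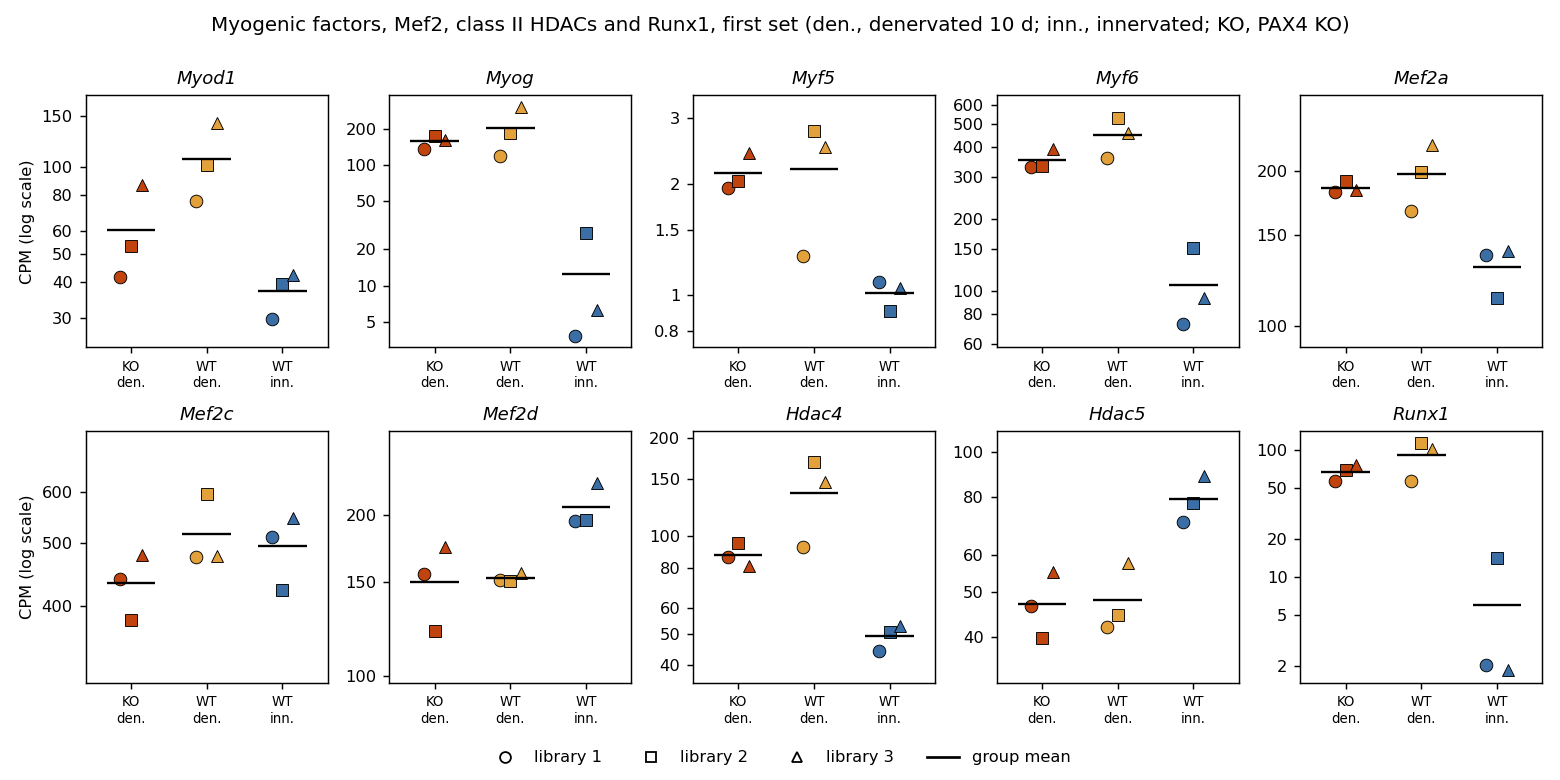
Level (CPM) of each gene by library in the first set, on a log axis, with one symbol per library and a line at the group mean. Denervated muscle of both genotypes sits above innervated muscle for 6 genes in full, while Hdac5 and Mef2d sit below it.

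Myog (ENSMUSG00000026459, chromosome 1, 134289989 to 134292548, plus strand, GRCm38) had 136, 173 and 162 CPM in the PAX4 KO libraries, 118, 184 and 301 CPM in denervated WT and 3.84, 27.3 and 6.28 CPM in innervated WT. All denervated libraries lay above all innervated ones, and innervated library 2 lay well above the other two. The log2 fold change of denervated over innervated WT was 3.98 ± 0.65 (SE, edgeR, adjusted p = 0.00151), and 5.30 without innervated library 2 (adjusted p = 6.89e-05). The promoter of Myog in the RefSeq table for GRCm38.p6 (chr1:134289754-134290053, plus strand, 250 bases before the start site to 50 after) is shown because the gene moved furthest in this family and is bound by its own family. Capitals mark its 2 E-boxes, CANNTG on either strand, at positions -138 and -12 relative to the start site.
Myog: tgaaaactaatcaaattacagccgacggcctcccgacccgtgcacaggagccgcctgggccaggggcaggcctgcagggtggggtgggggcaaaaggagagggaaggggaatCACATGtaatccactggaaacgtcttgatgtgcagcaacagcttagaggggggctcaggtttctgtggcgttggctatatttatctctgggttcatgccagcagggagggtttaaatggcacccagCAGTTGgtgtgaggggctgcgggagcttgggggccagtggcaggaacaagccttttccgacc
An E-box was present in 72.3% of all 32851 promoter windows of this length, so a match is common. The stretch ctatatttat in the Myog window differs only in its last base from the MEF2 pattern searched. Variants of that pattern were not counted, so the stretch is not marked.

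Myf6, the factor most abundant in adult fibres and also called MRF4 (ENSMUSG00000035923, chromosome 10, 107492853 to 107494737, minus strand), had 330, 333 and 393 CPM in PAX4 KO, 360, 526 and 458 CPM in denervated WT and 72.6, 152 and 93.6 CPM in innervated WT. Its 3 denervated WT libraries lay above the innervated ones, of which library 2 was again the highest. Denervated WT muscle was 4.22-fold above innervated WT (adjusted p = 0.000398). Myod1, which commits cells to the muscle lineage and is kept in satellite cells and in some fibres (ENSMUSG00000009471, chromosome 7, 46376474 to 46379099, plus strand), had 41.6, 53.3 and 86.4 CPM in PAX4 KO, 76.1, 101.4 and 142 CPM in denervated WT and 29.6, 39.1 and 42.3 CPM in innervated WT. The 2 WT groups did not overlap, and one PAX4 KO library lay among the innervated values. Denervated WT averaged 106 ± 33.1 CPM and innervated WT 37.0 ± 6.59 CPM (SD, n = 3 each, edgeR adjusted p = 0.00337). Myf5, a lineage factor of myoblasts that lies beside Myf6 (ENSMUSG00000000435, chromosome 10, 107482908 to 107486134, minus strand), was the scarcest, with 1.94, 2.04 and 2.42 CPM in PAX4 KO, 1.28, 2.77 and 2.51 CPM in denervated WT and 1.08, 0.90 and 1.05 CPM in innervated WT. Its 2.16-fold rise in denervated over innervated WT (edgeR, adjusted p = 0.0187) lost its call when denervated WT library 2 or 3 was left out (adjusted p = 0.0774 and 0.0638) and when innervated library 2 or 3 was (0.0529 and 0.0542). By the adjusted p that the authors deposited for this comparison, 8 of the 10 genes were under 0.05, and Myf5 was not (0.106).

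Of the 3 Mef2 factors, 1 rose, 1 fell and 1 did not pass. Mef2a (ENSMUSG00000030557, chromosome 7, 67231163 to 67372858, minus strand) had 182, 192 and 184 CPM in PAX4 KO, 168, 200 and 225 CPM in denervated WT and 138, 114 and 140 CPM in innervated WT. Each denervated library exceeded each innervated one, and the log2 fold change in WT was 0.60 ± 0.13 (SE, edgeR, adjusted p = 0.00743). Mef2d (ENSMUSG00000001419, chromosome 3, 88142372 to 88172086, plus strand) had 155, 121 and 174 CPM in PAX4 KO, 151, 150 and 156 CPM in denervated WT and 194, 195 and 230 CPM in innervated WT. Denervated muscle was lower without overlap, by -0.44 ± 0.14 on the log2 scale for the WT groups (adjusted p = 0.0358). This call was lost with any one library of the WT groups left out other than innervated library 2 (adjusted p = 0.0787, 0.091 and 0.0786 without denervated WT libraries 1, 2 and 3, and 0.0623 and 0.122 without innervated libraries 1 and 3), and with no filter on low counts (0.0588). Mef2c, the Mef2 factor with the highest counts (ENSMUSG00000005583, chromosome 13, 83504034 to 83667080, plus strand), had 441, 382 and 480 CPM in PAX4 KO, 477, 596 and 477 CPM in denervated WT and 512, 424 and 547 CPM in innervated WT. The groups overlapped, and the log2 difference of 0.06 in WT had a 95% interval of -0.27 to 0.40 (adjusted p = 0.779).

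The histone deacetylases moved apart. Hdac4 (ENSMUSG00000026313, chromosome 1, 91928779 to 92195699, minus strand) had 86.1, 95.4 and 81.0 CPM in PAX4 KO, 92.6, 169 and 147 CPM in denervated WT and 44.2, 50.5 and 53.0 CPM in innervated WT. Denervated libraries were all above innervated ones, by 2.76-fold for the WT groups (log2 1.47 ± 0.20, SE, edgeR, adjusted p = 0.000591). Hdac5, a related class II enzyme (ENSMUSG00000008855, chromosome 11, 102194432 to 102230166, minus strand), had 46.6, 39.8 and 55.1 CPM in PAX4 KO, 42.1, 44.5 and 57.8 CPM in denervated WT and 70.8, 77.7 and 89.1 CPM in innervated WT. Denervated muscle was below innervated muscle in every library, at 60.7% of its level for the WT groups (log2 -0.72 ± 0.16, adjusted p = 0.00731). Exons of Hdac4 share 3536 bases, 22.4% of its exon bases, with Gm26720 on the opposite strand, which was given 0 counts in every library. Whether the counting used strand is not given in the sources used here.

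Runx1, a runt factor better known from blood formation (ENSMUSG00000022952, chromosome 16, 92601466 to 92826149, minus strand), had 56.5, 68.9 and 75.8 CPM in PAX4 KO, 56.9, 113 and 100.8 CPM in denervated WT and 2.02, 14.2 and 1.85 CPM in innervated WT. The denervated libraries lay far above the innervated ones, among which library 2 again stood highest. The log2 fold change in WT was 3.86 ± 0.66 (SE, edgeR, adjusted p = 0.00203), and 5.55 without innervated library 2 (adjusted p = 1.76e-05). Macrophages also express Runx1. The summed level of 13 macrophage markers was 425 to 849 CPM in denervated WT and 110 to 348 CPM in innervated WT, with 10 of 13 genes called higher, and its part in the Runx1 result was not tested. The first of the 2 Runx1 windows in the RefSeq table (chr16:92826025-92826324, minus strand) is shown because it holds E-boxes and RUNX cores, though no MEF2 site. Its 3 E-boxes (CANNTG) and its 2 RUNX cores (TGTGGT, here on the reverse strand) are in capitals.
Runx1: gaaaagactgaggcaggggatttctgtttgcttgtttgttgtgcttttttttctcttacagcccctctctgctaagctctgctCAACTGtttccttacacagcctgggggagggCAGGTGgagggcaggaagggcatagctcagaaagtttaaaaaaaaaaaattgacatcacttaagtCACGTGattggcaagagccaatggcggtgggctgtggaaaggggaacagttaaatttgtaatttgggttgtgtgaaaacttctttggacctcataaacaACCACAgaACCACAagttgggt
No marked motifs overlap. The RUNX core was present in 16.8% of all windows, and the second Runx1 window held none of the motifs searched.

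Per kilobase of exon the order of levels changed with denervation. In denervated WT muscle Myf6 came first (355 ± 66.1 CPM per kb, SD, n = 3), then Myog (134 ± 62.3), Myod1 (57.2 ± 17.8), Mef2c (32.9 ± 4.36), Mef2d (25.4 ± 0.51) and Mef2a (13.5 ± 1.96), each apart from the next. Below them Hdac4 (8.60 ± 2.48), Runx1 (7.5 ± 2.45) and Hdac5 (5.48 ± 0.96) overlapped, and Myf5 was last (1.05 ± 0.38). In innervated WT muscle Myf6 again came first (83.9 ± 32.4), followed by Mef2d (34.5 ± 3.35) and Mef2c (31.5 ± 4.02), which overlapped. Myod1 came next (19.9 ± 3.54). Hdac5 (9.02 ± 1.05), Mef2a (8.88 ± 0.99), Myog (8.34 ± 8.62) and Hdac4 (3.11 ± 0.29) overlapped each with the next. Hdac4 stood apart from Runx1 (0.50 ± 0.59) and Myf5 (0.49 ± 0.05). The order depended on the length used. With the longest transcript as length, in denervated WT Mef2c (82.3 CPM per kb) moved above Myod1, Mef2a (35.7) moved above Mef2d (28.2), and Mef2c overlapped both Myog and Myod1. In innervated WT Mef2c (78.8) moved above Mef2d (38.2) and overlapped Myf6, and Mef2a (23.5) moved above Myod1 and Hdac5.

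Within families, shares of the level per kb shifted between WT groups. Myog made up 23.8 ± 6.61% of the 4 myogenic factors in denervated WT and 6.31 ± 4.45% in innervated WT (SD, n = 3 each). Hdac4 made up 60.4 ± 6.62% of Hdac4 and Hdac5 together in denervated WT and 25.7 ± 0.84% in innervated WT. Mef2a made up 18.7 ± 2.32% of the 3 Mef2 factors in denervated WT and 11.9 ± 0.64% in innervated WT. For these 3 shares the WT groups did not overlap, and no test was made on them.

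**Figure D2:**
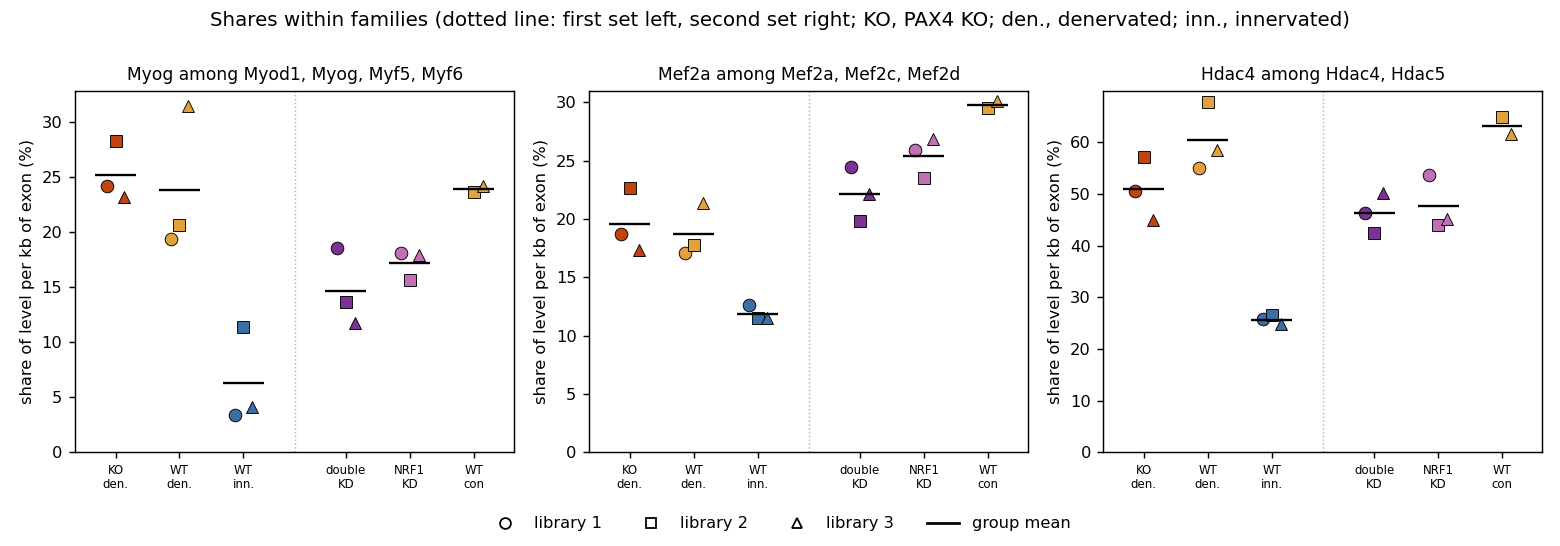
Share of Myog, Mef2a and Hdac4 within their families, in percent of the summed level per kilobase of exon, by library and group, with a line at the group mean. The Hdac4 share averages 60.4% in denervated WT and 25.7% in innervated WT, and in the second set 46.3% in double KD, 47.6% in NRF1 KD and 63.2% in WT con.

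Most listed targets of myogenin and MyoD rose with denervation. Of 18 genes listed as targets in denervated muscle, 14 rose and 0 fell in denervated over innervated WT, with a median log2 fold change of 2.90. Over all genes tested 16.5% were called higher and 15.8% lower, with a median of 0.02. The list was chosen with earlier results of these data known. Chrnb1, the beta subunit of the acetylcholine receptor, had 161 ± 12.2 CPM in denervated WT and 38.5 ± 10.5 CPM in innervated WT (SD, n = 3 each, edgeR adjusted p = 0.000119). Cdkn1a, the cell cycle inhibitor p21, had 392 ± 167 CPM in denervated WT and 54.4 ± 15.8 CPM in innervated WT (adjusted p = 0.000371). The 4 that did not pass, named after their values were seen, were Trim63 and Fbxo32, ubiquitin ligases of atrophy, Cdh15, an adhesion protein of satellite cells, and Chrne, the adult receptor subunit.

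Among 27 genes that signal to Mef2 and the class II deacetylases, 4 rose and 15 fell in denervated over innervated WT, with a median log2 fold change of -0.44. Camk2a and Camk2g, calcium-dependent kinases that phosphorylate class II deacetylases, fell by 2.54 and 1.09 on the log2 scale (adjusted p = 6.86e-05 and 0.000292, edgeR). Rcan1, a regulator of calcineurin and a target of that pathway, rose 2.74-fold (adjusted p = 0.00219), and Camk2d rose 1.76-fold (adjusted p = 0.00416). Dach2, chosen after its value was seen, fell by 2.85 (adjusted p = 0.00159). Of 15 tested E proteins and inhibitors of bHLH factors, 4 rose and 2 fell. Over all genes tested in this comparison, 16.5% were called higher and 15.8% lower. Id2, which ties up E proteins, rose 4.80-fold (adjusted p = 0.001002), and Msc, a repressor that binds E-boxes, rose 2.38-fold (adjusted p = 0.00862). Bhlhe41 and Heyl fell by 0.87 and 0.65 (adjusted p = 0.00245 and 0.0175). Of 9 relatives of the Mef2, deacetylase and Runx genes, Hdac6 rose by 0.51 (adjusted p = 0.00982) and Hdac7 fell by 0.56 (adjusted p = 0.00276).

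Markers of other cells bear on these levels, since fewer cells of a type and less RNA per cell cannot be told apart in whole muscle. Of 13 satellite cell and myoblast markers, 1 rose and 2 fell in denervated over innervated WT, and their summed level was 345 to 415 CPM in denervated WT and 354 to 381 CPM in innervated WT. None was at 0 in a whole group. Summed fibre markers were 68470 to 84980 CPM in denervated WT and 96610 to 119900 CPM in innervated WT, with 2 of 10 called higher and 3 lower. The part of these shifts in the results was not tested.

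Across all 9 libraries of the first set, the genes outside the group whose log2(CPM + 1) followed Myog most closely, among 8678 genes, were Gdf5, a growth factor of the BMP family (Pearson's r = 0.998), Ppp2r3d (0.993) and Rps26 (0.993). For Hdac4 they were Tgfbr1, a receptor of TGF-beta (0.992), Sh3d19 (0.988) and Galnt7 (0.982). For Runx1 they were Kcnn3, a calcium-activated potassium channel (0.998), Chrnd, the delta subunit of the acetylcholine receptor (0.998), and Cox19 (0.996). These values describe 3 groups of libraries and carry no test.

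In PAX4 KO muscle none of the 10 genes passed the test against denervated WT muscle. All 10 fold changes lay below 0, with a median of -0.30 against 0.01 over all genes, but the libraries of the groups overlapped for each gene, where 9.69% of all genes had every PAX4 KO library above and 7.23% every one below. Mef2d, Hdac5 and Myf5 lay barely below 0 (log2 -0.02, -0.03 and -0.03). The sign of Hdac5, Mef2a, Mef2d, Myf5 and Myog changed in some fits with one library left out. Over all genes 0.0186% were called higher and 0% lower by edgeR. Among the 10 genes, 2 had an unadjusted p under 0.05, and DESeq2 and limma-voom called 0. Hdac4 averaged 87.5 ± 7.31 CPM in PAX4 KO and 136 ± 39.2 CPM in denervated WT (SD, n = 3 each), a log2 fold change of -0.64 with a 95% interval of -1.06 to -0.21 (edgeR, adjusted p = 0.292). Myod1 averaged 60.4 ± 23.2 CPM in PAX4 KO and 106 ± 33.1 CPM in denervated WT, a log2 fold change of -0.81 with an interval of -1.44 to -0.19 (adjusted p = 0.315). Hdac4 passed when denervated WT library 1 was left out (-0.85, adjusted p = 0.0494), and both passed when no filter on low counts was applied (adjusted p = 0.0272 for Hdac4 and 0.0168 for Myod1). For Myog the interval ran from -1.61 to 0.90 and for Runx1 from -1.71 to 0.86, so changes of either sign past 1.5-fold lie within them.

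**Figure D3:**
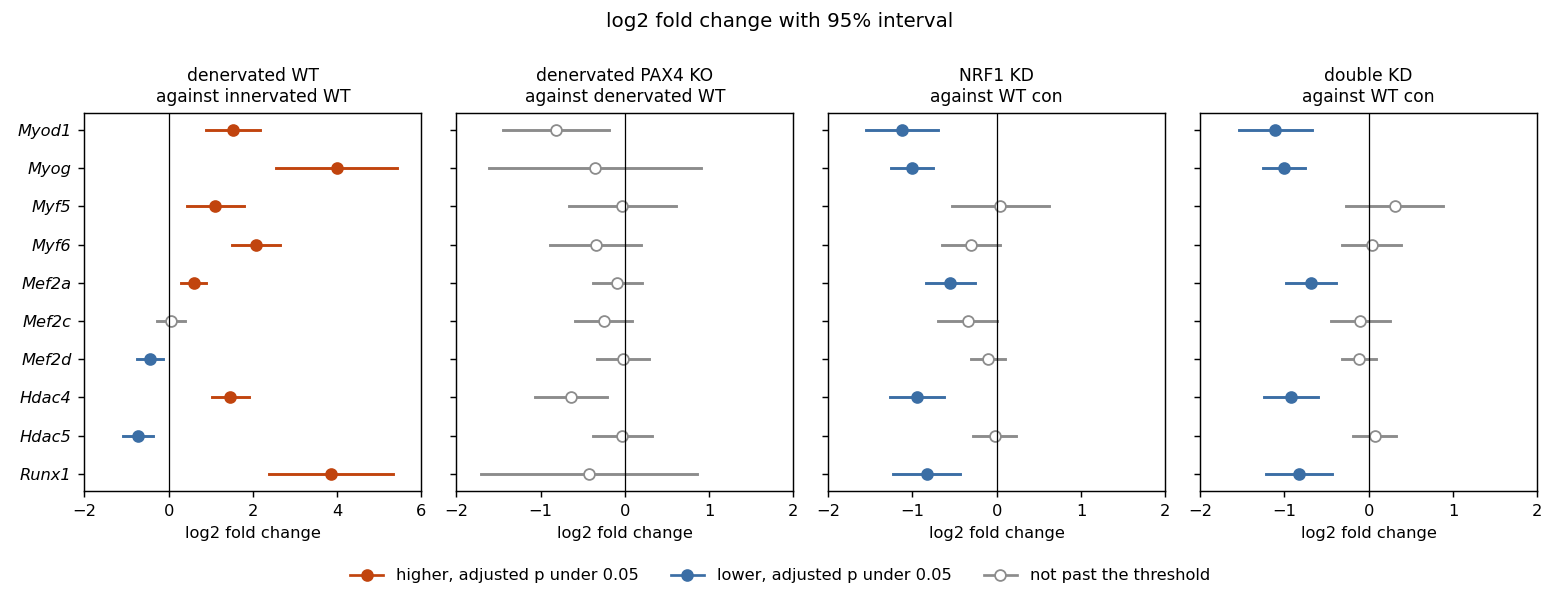
The log2 fold change of each gene with its 95% interval in 4 comparisons, filled where the adjusted p was under 0.05. The first panel has a wider axis. In the panels for NRF1 KD and double KD the same 5 genes, Myod1, Myog, Mef2a, Hdac4 and Runx1, lie to the left of 0 and pass.

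Against innervated WT, which also served as the reference for denervated WT, 6 of the 10 genes were higher in PAX4 KO muscle and 2 were lower, where 21.8% and 18.2% of all genes were. The same 8 genes had non-overlapping libraries, 6 above and 2 below, as had 29% and 23.3% of all genes. The log2 fold changes were 3.63 for Myog, 3.43 for Runx1, 1.73 for Myf6, 1.08 for Myf5, 0.83 for Hdac4 and 0.51 for Mef2a, and -0.75 for Hdac5 and -0.46 for Mef2d. Myod1 did not pass (0.71, adjusted p = 0.0713, 0.0302 without PAX4 KO library 1 and 0.00607 with no filter) and neither did Mef2c (-0.19). Without innervated library 2, Myog stood at 4.94 and Runx1 at 5.12. The calls of Myf5 were lost without PAX4 KO library 3 (adjusted p = 0.0559) or innervated library 2 (0.0513), and those of Mef2d without PAX4 KO library 1 or 2 (0.0511 and 0.0767) or innervated library 3 (0.0875). Of the listed targets 14 of 18 rose and 0 fell against innervated WT, and 0 passed in either direction against denervated WT (edgeR), with 1 at an unadjusted p under 0.05. Summed macrophage markers were 757 to 1353 CPM in PAX4 KO, 425 to 849 CPM in denervated WT and 110 to 348 CPM in innervated WT, with 13 of 13 called higher against innervated WT. Summed fibre markers were 55800 to 75190 CPM in PAX4 KO and 68470 to 84980 CPM in denervated WT. Summed satellite cell markers were 426 to 456 CPM in PAX4 KO and 345 to 415 CPM in denervated WT, and summed fibroblast markers 2253 to 5826 CPM in PAX4 KO and 1434 to 1880 CPM in denervated WT. For both lists the libraries of these groups did not overlap, though 0 of the 13 and 0 of the 6 genes passed (edgeR), with 3 of each at an unadjusted p under 0.05. The part of these markers in the results was not tested.

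In denervated muscle labelled NRF1 KD, 5 of the 10 genes were lower than in WT con and none was higher. These were Myod1, Myog, Mef2a, Hdac4 and Runx1, at 45.9% to 68.4% of the WT con level. All 5 had risen with denervation in the first set, whose libraries are separate. The genes were chosen with earlier results of these data known, so this overlap is a description only. Over all 15624 genes tested 3.72% were called lower and 7.58% higher (limma on log2 of the normalised count plus 1, adjusted p under 0.05). The median log2 fold change was -0.45 over the 10 genes and 0.00 over all genes, and 8 of the 10 genes had every NRF1 KD library below both WT con libraries and 0 had every one above, where 23.4% of all genes lay below and 22.5% above. In muscle labelled double KD the same 5 genes were lower and none was higher, where 1.7% of all genes were lower and 2.39% higher. Its median was -0.40 over the 10 genes and 0.02 over all genes, and 6 genes lay wholly below WT con and 1, Myf5, wholly above, as did 17.6% and 18.1% of all genes. Both comparisons share the WT con libraries, so they are not independent.

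**Figure D4:**
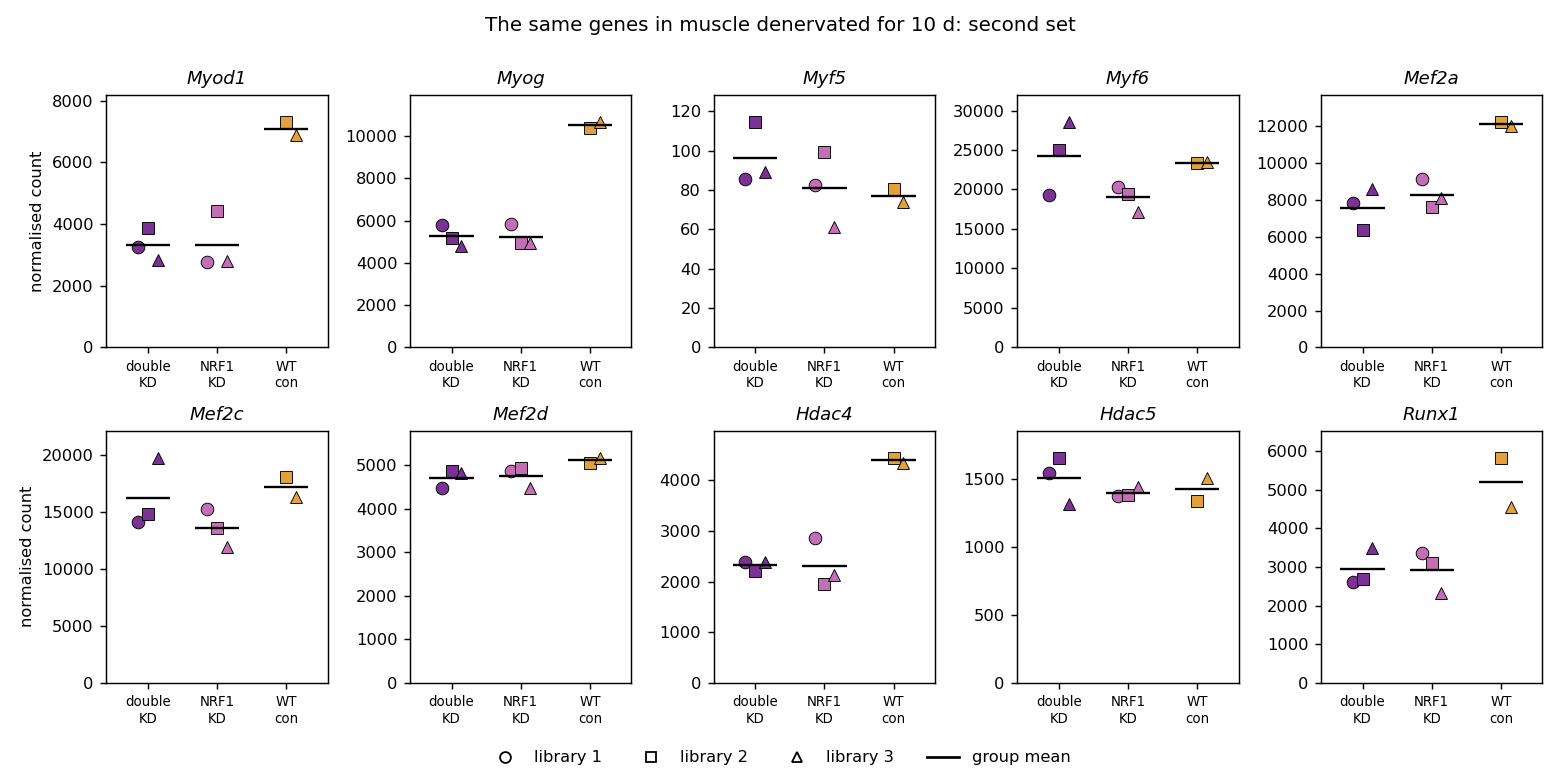
Normalised counts, reads divided by the library's size factor, of each gene by library in the second set, all at 10 d of denervation, with a line at the group mean and axes from 0. For Myod1, Myog, Mef2a, Hdac4 and Runx1 every knockdown library lies below both WT con libraries.

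Myog had 5811, 5189 and 4784 normalised counts in double KD, 5831, 4956 and 4936 in NRF1 KD and 10381 and 10652 in WT con. The knockdown libraries clustered near the midpoint between 0 and WT con, with little spread. The level was 49.9% of WT con in double KD and 49.7% in NRF1 KD (limma, adjusted p = 0.00292 and 0.00194). Myog passed in both comparisons whichever library was left out. Myod1 had 3243, 3878 and 2842 normalised counts in double KD, 2776, 4415 and 2816 in NRF1 KD and 7304 and 6895 in WT con. Its level was 46.4% of WT con in double KD and 45.9% in NRF1 KD (adjusted p = 0.0169 and 0.00728). The 2 other myogenic factors did not pass. Myf6 had 19329, 25041 and 28511 normalised counts in double KD, 20336, 19442 and 17209 in NRF1 KD and 23305 and 23536 in WT con. Its difference was 0.03 with an interval of -0.31 to 0.38 for double KD and -0.31 with an interval of -0.65 to 0.04 for NRF1 KD. Myf5 stayed scarce, at 85.7, 114 and 89.1 normalised counts in double KD, 82.6, 99.3 and 61.0 in NRF1 KD and 80.5 and 73.7 in WT con. The double KD libraries all lay above WT con, but its adjusted p was 0.544 for double KD and 0.942 for NRF1 KD.

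Hdac4 had 2386, 2203 and 2381 normalised counts in double KD, 2864, 1949 and 2138 in NRF1 KD and 4448 and 4342 in WT con. It was at 52.8% of the WT con level in double KD and 52.0% in NRF1 KD (log2 -0.92 ± 0.14 and -0.94 ± 0.14, SE, limma, adjusted p = 0.0108 and 0.00479). Hdac5 overlapped between the groups, with 1541, 1656 and 1313 normalised counts in double KD, 1373, 1381 and 1442 in NRF1 KD and 1341 and 1509 in WT con. Its log2 difference had a 95% interval of -0.18 to 0.33 for double KD and -0.28 to 0.23 for NRF1 KD. The Hdac4 share of the pair per kb was 46.3 ± 3.84% in double KD, 47.6 ± 5.30% in NRF1 KD and 61.5% and 64.8% in the WT con libraries.

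Runx1 had 2617, 2697 and 3494 normalised counts in double KD, 3361, 3093 and 2333 in NRF1 KD and 5828 and 4563 in WT con. The WT con libraries differed from each other more than for the other 4 lower genes, and no knockdown library reached the lower one. The log2 fold change was -0.82 ± 0.18 for double KD and -0.83 ± 0.18 for NRF1 KD (SE, limma, adjusted p = 0.0335 and 0.0165). The summed level of 12 macrophage markers was 14120 to 22200 normalised counts in double KD, 18340 to 37280 in NRF1 KD and 7901 to 10320 in WT con. All 12 were called higher in NRF1 KD and 2 of 12 in double KD. In double KD 11 of the 12 had an unadjusted p under 0.05 (limma), and the median log2 fold change was 0.95. The part of these markers in the Runx1 result was not tested.

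Mef2a had 7821, 6367 and 8590 normalised counts in double KD, 9160, 7638 and 8112 in NRF1 KD and 12226 and 12001 in WT con. It was at 62.2% of WT con in double KD and 68.4% in NRF1 KD (limma, adjusted p = 0.0239 and 0.0261). Mef2c had 14083, 14764 and 19744 normalised counts in double KD, 15202, 13619 and 11935 in NRF1 KD and 18043 and 16299 in WT con. All NRF1 KD libraries lay below WT con but the test did not pass (log2 -0.34, 95% interval -0.69 to 0.01, adjusted p = 0.189), and double KD overlapped WT con. Mef2d had 4476, 4865 and 4822 normalised counts in double KD, 4871, 4948 and 4482 in NRF1 KD and 5056 and 5178 in WT con. Every knockdown library was below WT con by a small margin (log2 -0.12 for double KD and -0.10 for NRF1 KD, adjusted p = 0.499 and 0.497). The Mef2a promoter (chr7:67372809-67373108, minus strand, RefSeq, GRCm38.p6) is shown because Mef2a was the one Mef2 factor that passed in these comparisons, and its single MEF2 site, at position -2, is in capitals.
Mef2a: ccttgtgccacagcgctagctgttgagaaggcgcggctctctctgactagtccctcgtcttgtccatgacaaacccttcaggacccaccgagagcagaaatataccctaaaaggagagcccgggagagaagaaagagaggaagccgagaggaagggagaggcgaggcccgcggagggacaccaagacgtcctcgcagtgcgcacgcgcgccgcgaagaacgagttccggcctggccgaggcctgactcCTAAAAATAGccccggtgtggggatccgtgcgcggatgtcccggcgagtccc
A match to the MEF2 pattern searched was present in 3.19% of all windows, and variants of the pattern were not counted. The Hdac4 window held none of the motifs searched, and Myod1 and Myf6 had no entry in the table. The NRF1 site, a motif added after the data were seen, was searched only as a fixed sequence, with no variant letters allowed. That sequence was in none of the windows of the 8 genes with an entry and in 0.971% of all windows. The Mef2a window shown above holds a stretch that differs from it by a single base, and variants of the site were not counted. No match therefore says only that this exact sequence is not in these windows.

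These calls rest on 2 WT con libraries. Without WT con library 2, which leaves a lone WT con library assumed to vary like the other groups, the adjusted p for NRF1 KD was 0.0508 for Myod1, 0.141 for Mef2a and 0.141 for Runx1, and for double KD it was 0.114 for Myod1, 0.145 for Mef2a, 0.0841 for Hdac4 and 0.244 for Runx1. Mef2a also lost its call for NRF1 KD without WT con library 3 (0.0804) or NRF1 KD library 2 or 3 (0.0847 and 0.0918), and for double KD without WT con library 3 (0.057) or double KD library 2 (0.0758). Runx1 lost its call for NRF1 KD without NRF1 KD library 3 (0.0577), and for double KD without double KD library 1 or 2 (0.0651 and 0.117). With only the 2 groups compared in the fit, Mef2a and Runx1 lost their calls for double KD (0.0579 and 0.0522). In the authors' deposited table the same 5 genes had an adjusted p under 0.05 for NRF1 KD and for double KD, and their log2 fold changes there were -1.09 for Myod1 and -0.92 for Hdac4 in NRF1 KD.

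Of the 7 genes that rose with denervation in the first set, 5 were lower in NRF1 KD and 5 in double KD. Among all 2541 genes higher in denervated than innervated WT and listed in the second table, 9.96% were lower in NRF1 KD and 5.31% in double KD. The genes described here and the lists were chosen with earlier results of these data known, so counts beside these shares are descriptions only. Of the 14 listed targets of myogenin and MyoD that rose with denervation, 5 were lower in NRF1 KD and 3 in double KD. Over the 17 targets measured in the second set, 1 was higher and 6 were lower in NRF1 KD (median log2 fold change -0.34), and 2 were higher and 5 lower in double KD (median -0.49). Musk, the receptor kinase that organises the neuromuscular junction, had 1271 ± 13.3 normalised counts in double KD, 1068 ± 77.2 in NRF1 KD and 2397 ± 42.2 in WT con (SD, n = 3, 3 and 2, limma, adjusted p = 0.00211 and 0.000480). Gadd45a, a stress response gene of denervated fibres, fell by 1.13 in double KD and by 1.32 in NRF1 KD on the log2 scale (adjusted p = 0.00366 and 0.00183). Myh8, the perinatal myosin, was higher by 1.02 in double KD and 0.76 in NRF1 KD (adjusted p = 0.0266 and 0.0404), and Ncam1, an adhesion molecule of denervated fibres, was higher by 0.46 in double KD (adjusted p = 0.0453).

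**Figure D5:**
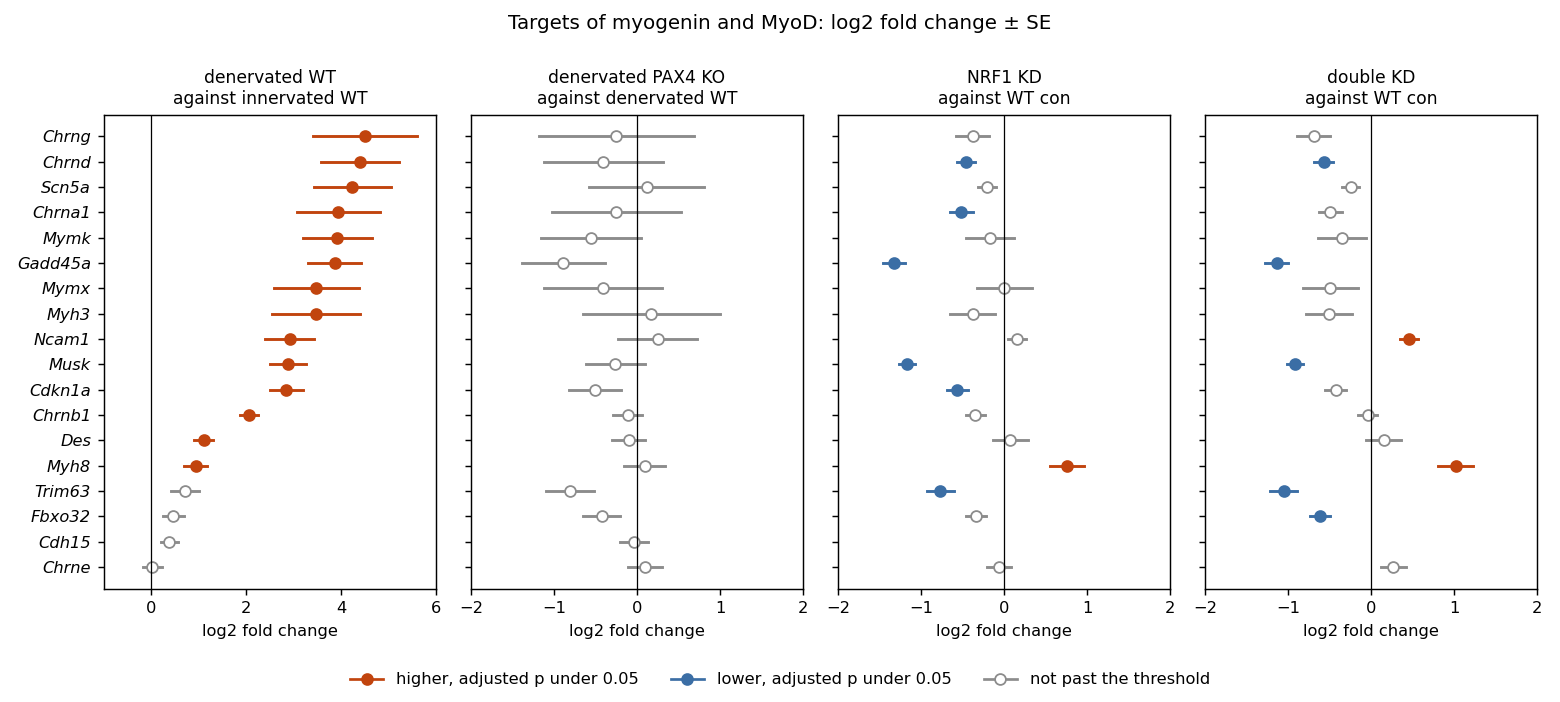
The log2 fold change ± SE of 18 targets of myogenin and MyoD in 4 comparisons, sorted by the first, filled where the adjusted p was under 0.05, with Cdh15 not listed in the second set. The 14 genes that pass in the first panel lie right of 0, and in the knockdown panels 6 and 5 genes pass to the left and 1 and 2 to the right.

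Among the 27 genes that signal to Mef2 and the deacetylases, 2 were higher and 1 lower in double KD and 2 were higher and 2 lower in NRF1 KD. Over all genes, 2.39% were higher and 1.7% lower in double KD, and 7.58% and 3.72% in NRF1 KD. Vgll2, a cofactor of TEAD factors in muscle, was higher by 1.07 in double KD and 0.82 in NRF1 KD (log2, limma, adjusted p = 0.00157 and 0.00246). Rcan1 was higher by 1.00 in double KD and 0.89 in NRF1 KD (adjusted p = 0.00648 and 0.00507). Sik1, a kinase that phosphorylates class II deacetylases, fell by 0.91 in double KD and by 0.74 in NRF1 KD (adjusted p = 0.00336 and 0.00414), and Camk2g fell by 0.47 in NRF1 KD (adjusted p = 0.0157). Among the relatives, Cbfb, the partner of Runx proteins in DNA binding, fell by 0.62 and Mef2b rose by 0.59 in NRF1 KD (adjusted p = 0.0115 and 0.0256), and 0 of 9 passed in double KD, where 4 had an unadjusted p under 0.05 and Cbfb stood at -0.47 (limma, adjusted p = 0.0590). Of 16 E proteins and bHLH inhibitors, Id2 and Bhlhe40 fell by 1.03 and 0.58 in double KD (adjusted p = 0.0249 and 0.0255), and Mdfi, which binds myogenic factors, rose by 1.14 in NRF1 KD (adjusted p = 0.0249). Of 10 fibre markers 0 passed in either comparison, with 0 at an unadjusted p under 0.05 in double KD and 1 in NRF1 KD (limma), and of 13 satellite cell markers 0 were higher and 1 lower in double KD and 1 higher and 0 lower in NRF1 KD. The part of these markers in the results was not tested.

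Between double KD and NRF1 KD none of the 10 genes passed, where 0.0768% of all genes were higher and 0.0576% lower in double KD (limma). Their libraries overlapped for each gene, where 8.03% of all genes lay wholly above and 8.28% wholly below. Of the 10 genes 1 had an unadjusted p under 0.05 and 0 were called by edgeR on the recovered reads. That gene was Myf6, whose log2 difference was 0.34 with an interval of 0.03 to 0.65 (limma, adjusted p = 0.39). For the 5 genes lower in both groups, the 95% interval of the log2 difference was -0.22 to 0.23 for Myog, -0.37 to 0.40 for Myod1, -0.40 to 0.13 for Mef2a, -0.26 to 0.31 for Hdac4 and -0.35 to 0.36 for Runx1.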

How the data were processed

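Muscle RNA was isolated with TRIzol and made into libraries with a SMARTER mRNA-Seq kit, per the labels' protocols. The submitters' processing notes name GRCm38 and mm10 as builds. The aligner and counting tool were not given in the sources used here. Raw counts, whole numbers per gene, were deposited by the authors for 9 libraries of the first set. For the second set the deposited values were log2 values on the variance-stabilised scale of DESeq2, beside a deposited signal, the mean normalised count over 8 libraries. The deposited tables also held the authors' log2 fold changes and adjusted p-values.

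Columns were tied to groups by name. Libraries of the first set were numbered in ascending order of the numbers in their column names. The log2 values were inverted to normalised counts, which met the deposited mean within 3.34e-07%, and 100% of the reads so recovered were whole to within 0.05. The first set was tested with edgeR 4.0.16 (quasi-likelihood, TMM, filterByExpr, 16146 genes, all 9 libraries in 1 fit). The second set was tested with limma 3.58.1 on log2(normalised count + 1), over 15624 genes and 8 libraries. Adjustment was by Benjamini-Hochberg over all genes and calls were made at 0.05. Scripts were tested on simulated data. No pair of libraries in a group agreed within sampling noise (chi-square over degrees of freedom 21.8 to 84.4), and each was counted once.

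The genes and lists were chosen with earlier results of these data known. From each list up to 2 called genes in each direction were named by smallest adjusted p. Genes alike in pattern were sought at a mean of at least 8 CPM. Alternatives were DESeq2 1.42.0, limma-voom, other scalings, filters and pseudocounts, only the groups compared, a replicate block and each library left out. WT con library 1, 2 innervated samples of another label and 3 samples at 14 d were not analysed here.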

Additional observations from a re-analysis of the deposited data

How the results depend on the processing

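The 9 calls for denervated over innervated WT gave 8 or 9 in every alternative that kept all libraries, and 7 to 8 with one library left out. The 5 calls for each knockdown held under both pseudocounts, TMM scaling, a mean of at least 50 normalised counts and edgeR on recovered reads. With only the 2 groups compared, double KD gave 3 genes of the group and 231 of all, Mef2a and Runx1 being lost (adjusted p = 0.0579 and 0.0522, limma). For PAX4 KO against denervated WT, all genes called were 3 in the main test, 192 by DESeq2, 5 by limma-voom and 456 without a filter, where 2 of the group were called; without innervated library 2 and denervated WT library 1 they were 169, and 1 of the group. For double KD against NRF1 KD the 21 genes called became 1 with a pseudocount of 0.1, 1 at a mean of at least 50 normalised counts and 79 with only these groups. The cause of these shifts was not tested. With one library left out, genes called ranged from 1 to 26 for PAX4 KO against denervated WT, 550 to 1611 for NRF1 KD, 86 to 692 for double KD and 1 to 158 between the knockdowns, and genes of the group called from 0 to 1, 2 to 5, 1 to 5 and 0 to 0.

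Denervated and innervated WT libraries share numbers in their column names, and nothing says what these mark. Same-numbered libraries deviated together with correlations of 0.23, 0.03 and 0.27, each the best of its library. A replicate block gave 5034 genes and 9 of the group for denervation. In the second set same-numbered correlations were 0.09 and 0.30 for NRF1 KD and -0.08 and -0.37 for double KD against WT con, and -0.34, -0.11 and -0.39 between the knockdowns. The replicate block gave 630 genes and 3 of the group for NRF1 KD, 136 and 3 for double KD, and 9 and 0 between them. The 2 of the group lost with the block were Mef2a and Runx1 in both comparisons (limma, adjusted p = 0.0641 and 0.108 for double KD, 0.057 and 0.0633 for NRF1 KD). For the 2 comparisons of PAX4 KO muscle no block could be fitted, since the PAX4 KO libraries share no numbers with the WT groups.

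Values that changed sign were uncalled in the main test. For PAX4 KO against denervated WT, Myf5 became 0.067 by limma-voom and Mef2d 0.0032 at a mean of at least 5 CPM. For NRF1 KD, Hdac5 became 0.0096 by edgeR on recovered reads and 0.012 by TMM scaling. Between the knockdowns, edgeR on recovered reads gave -0.012 for Myod1, -0.0019 for Myog, -0.0041 for Hdac4 and -0.0036 for Runx1, and TMM scaling -0.0025 for Myog. With one library left out, log2 fold changes for PAX4 KO against denervated WT ranged from -0.16 to 0.12 for Hdac5, -0.19 to 0.016 for Mef2a, -0.14 to 0.11 for Mef2d, -0.31 to 0.17 for Myf5 and -0.63 to 0.057 for Myog. For denervated over innervated WT, Mef2c ranged from -0.055 to 0.14. For NRF1 KD, Hdac5 ranged from -0.11 to 0.061 and Myf5 from -0.12 to 0.23. For double KD, Hdac5 ranged from -0.012 to 0.17 and Myf6 from -0.090 to 0.19. Between the knockdowns the ranges were -0.092 to 0.19 for Hdac4, -0.057 to 0.024 for Mef2d, -0.10 to 0.24 for Myod1, -0.069 to 0.084 for Myog and -0.15 to 0.12 for Runx1.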

Other observations

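Some markers of other cell types passed in these comparisons too. Over all genes, 16.5% were called higher and 15.8% lower in denervated over innervated WT. In NRF1 KD 7.58% were higher and 3.72% lower, and in double KD 2.39% and 1.7%. Lists with few genes called lie near these shares. Of 9 Schwann cell markers, 0 rose and 6 fell in denervated over innervated WT, with summed levels of 42.5 to 60.7 CPM in denervated WT and 154 to 235 CPM in innervated WT. Mbp, a myelin protein, fell by 2.63 on the log2 scale (edgeR, adjusted p = 6.86e-05). Of 9 endothelial markers, 0 rose and 6 fell in denervated over innervated WT, among them the receptors Tek and Kdr, by 0.73 and 0.79 (adjusted p = 0.00232 and 0.00340). Of 6 fibroblast markers, 0 rose and 1, Dcn, fell by 0.54 (adjusted p = 0.0459). In the second set 1 fibroblast marker was higher in double KD and 3 in NRF1 KD, of 6, with Col3a1 higher by 1.42 in double KD and 1.46 in NRF1 KD (limma, adjusted p = 0.0400 and 0.0192). Of the 9 endothelial markers 0 passed in either knockdown comparison (limma), with 2 in double KD and 3 in NRF1 KD at an unadjusted p under 0.05, and of the 9 Schwann cell markers 0 passed in double KD and 1, Pmp22, was higher by 0.72 in NRF1 KD (adjusted p = 0.0410). Against denervated WT, 0 of these markers passed in PAX4 KO (edgeR), with 1 endothelial, 3 fibroblast and 1 Schwann cell marker at an unadjusted p under 0.05.

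Dach2, the repressor of Myog, did not pass in the second set. Its log2 difference was -1.58 ± 0.61 for double KD and -1.09 ± 0.61 for NRF1 KD against WT con (SE, limma, adjusted p = 0.169 and 0.278), and it was chosen after its value was seen.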
